A study of Rattus norvegicus and Mus musculus with 24 samples.

Results

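Rats 17 to 24 gave 8 of the 24 RNA sequencing libraries of the series, 1 library per animal: 4 from Ctns KO rats (animal numbers 18, 20, 22 and 24) and 4 from Ctns WT rats (17, 19, 21 and 23). They were chosen by the genotype and animal number in their labels, with earlier results of these data known. The series also holds 4 Ctns KO and 4 Ctns WT rats numbered 25 to 32, used here for comparison, and 8 mice, not used here. The KO rats carry a knockout of Ctns on a Sprague-Dawley background, the WT rats were their control littermates, matched for age and gender, and no treatment is given for either group. The ages and sexes of the sequenced rats, the kind of mutation, and what separates the 2 number ranges are not given in the sources used here. The labels name kidney cortex as the tissue and proximal tubule cells as the cell type, and the question was how gene activity in the kidney differs when Ctns is lost.

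CTNS codes for cystinosin, which carries cystine, the disulfide form of cysteine, out of the lysosome. Its loss in humans causes cystinosis, in which cystine builds up in lysosomes and the kidney proximal tubule, the segment that takes back most filtered sodium, phosphate, glucose, amino acids and small proteins, fails early. The lysosome is also the platform on which the growth kinase complex mTORC1 senses amino acids, and proximal tubule cells, which rarely divide in a healthy adult kidney, can lose specialised functions, express injury markers and re-enter the cell cycle when stressed.

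Libraries held 25002089 to 32568495 reads assigned to genes. Levels below are reads per 1000000 (CPM) after trimmed mean (TMM) scaling, listed in the order KO 18, 20, 22, 24 and WT 17, 19, 21, 23. Changes are log2 fold changes of KO over WT, with their standard error (SE) written out or after ±, and a symbol is called changed at an adjusted p under 0.05 (edgeR quasi-likelihood test, Benjamini-Hochberg). The table uses human-style symbols, so several rat genes can stand under 1 symbol. Of 8 proximal tubule markers, 6 were in the table (LRP2 and SLC5A12 were not), and their summed level was 7925 to 8398 CPM in the KO rats and 9381 to 11328 CPM in the WT rats. Markers of other kidney cells were present as well. The 3 podocyte markers summed to 673 to 733 CPM in KO and 687 to 804 CPM in WT, and 2 markers of thick limb and distal tubule to 3105 to 3351 and 2855 to 3540.2 CPM. These libraries therefore hold RNA from outside the proximal tubule. In such bulk RNA, fewer cells of a type and less RNA per cell cannot be told apart. The first principal component held 46.0% of the variance and separated the genotypes. The KO rats also had more symbols with at least 1 read, 12928 ± 47.3 against 12824 ± 29.8 (SD, n = 4 each; two-sided exact permutation test, p = 0.0286, the smallest that 4 against 4 allows).

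The transcript of the targeted gene did not separate the genotypes of rats 17 to 24. CTNS stood at 17.2, 19.1, 19.3 and 21.3 CPM in the KO rats and at 19.5, 19.8, 20.5 and 23.1 CPM in the WT rats. The groups overlapped, with the lowest level in KO 18 and the highest in WT 23, and the log2 fold change was -0.11 (SE 0.083, adjusted p = 0.514, edgeR). In rats 25 to 32 CTNS was called lower in KO, at -0.32 (SE 0.11, adjusted p = 0.0391, edgeR), and the changes of the 2 ranges were not shown to differ (difference -0.20, SE 0.14, adjusted p = 0.322, edgeR). The genotype of each rat therefore rests on its label, and a transcript made from a mutated gene can still be counted.

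Between Ctns KO and WT rats, 843 of 11610 symbols tested were called (7.26%), 589 higher in KO (5.07%) and 254 lower (2.19%). Rises were the larger changes. The median log2 fold change of the symbols called higher was 0.81 and of those called lower -0.31, and 219 symbols rose at least 2-fold against 10 that fell as far. Over all symbols tested the median was -0.0020, with 5727 above 0 and 5883 below. KO and WT levels did not overlap for 809 of the 843 called symbols, against 1587 of all those tested (13.7%). The number called rested in part on single animals: it was 504 without KO rat 24, 522 without WT rat 21 and 549 without KO rat 20, of which 494, 503 and 527 were among the 843. Gene lists were drawn up from textbook knowledge, with earlier results of these data known. They are described below by their counts and median, to be read against these shares.

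**Figure D1:**
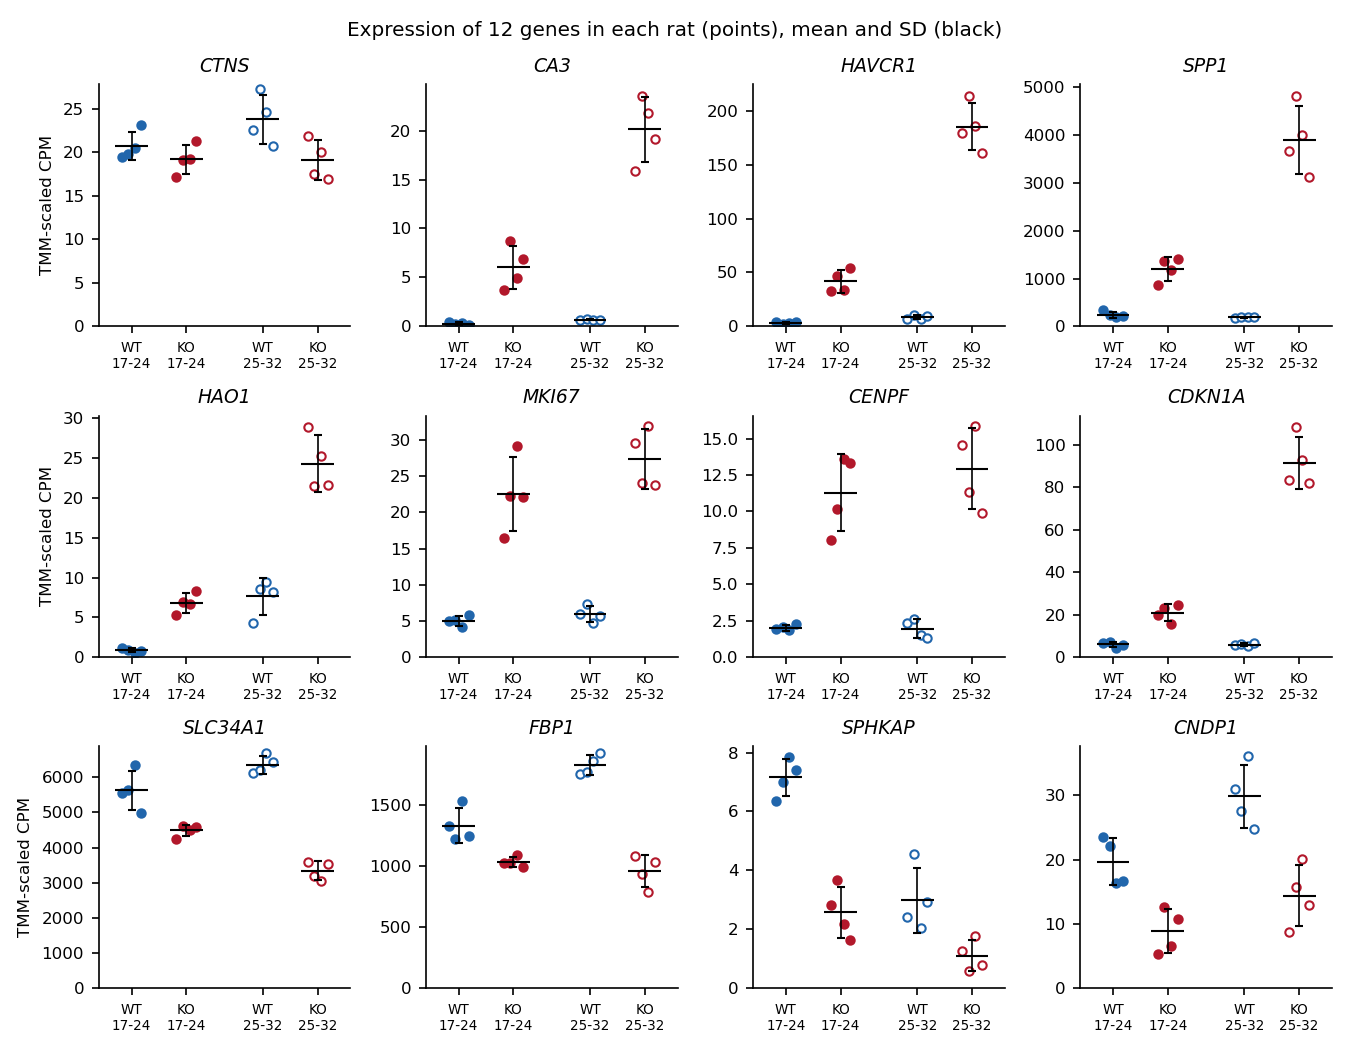
Levels of 12 genes in each rat, in CPM after TMM scaling on a linear axis from 0, for rats 17 to 24 and 25 to 32. Points are rats, the bar is the mean and the whisker the SD (n = 4). CTNS overlaps between KO and WT in rats 17 to 24, while HAVCR1 lies at 32.4 to 54.2 CPM in KO against 2.34 to 3.85 CPM in WT and SPHKAP lies lower in every KO rat of rats 17 to 24.

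Among the 45 gene lists, that of mitosis had the largest median and the largest share of members called. Of 57 listed, 47 were in the table and 45 were tested, and 40 of these were called higher and 0 lower, with a median log2 fold change of 1.69 (37 to 40 higher with any 1 rat left out). The level summed over the 47 symbols was 486 to 591 CPM in the KO rats and 315 to 331 CPM in the WT rats. CENPF, a kinetochore protein made in late S phase and G2, was at 8.07, 10.2, 13.6 and 13.3 CPM in KO and 1.93, 2.07, 1.84 and 2.28 CPM in WT. Every KO rat stood well above every WT rat, and the change was 2.47 (SE 0.18, adjusted p = 1.23e-05, edgeR). MKI67, the Ki-67 antigen that marks cycling cells, was at 16.5, 22.3, 29.1 and 22.1 CPM in KO and 5.04, 5.12, 4.19 and 5.84 CPM in WT, a log2 fold change of 2.15 (SE 0.17, adjusted p = 3.84e-05, edgeR). Its KO levels ranged widely, highest in KO 22 and lowest in KO 18, but stayed apart from WT. PRC1, which bundles the microtubules of the central spindle, rose from 2.83 ± 0.328 to 12.3 ± 2.19 CPM (SD, n = 4), and CDK1, the kinase that starts mitosis, from 2.30 ± 0.141 to 9.31 ± 1.71 CPM.

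The 12 largest rises among called symbols with a mean of at least 1 CPM and no overlap also included the checkpoint kinase TTK (log2 fold change 2.61 ± 0.20), the microtubule depolymerase KIF2C (2.53 ± 0.28), the outer kinetochore protein NDC80 (2.37 ± 0.19), the cohesin protector SGO2 (2.38 ± 0.21), the spindle protein KNSTRN (2.49 ± 0.19), the mitotic entry factor CDCA3 (2.74 ± 0.19) and the kinetochore linker CENPT (2.68 ± 0.46), with adjusted p from 1.23e-05 to 0.00483 (edgeR). Most of them were scarce in WT rats, TTK at 0.406 to 0.481 CPM and SGO2 at 0.437 to 0.578 CPM. The KO and WT levels of these 7 did not overlap, as the rule that picked them required. CENPT, with 4 reads in WT 21 and 5 in WT 23, passed the edgeR filter on low counts through its KO reads. The 5 tested members that were not called were BUB3 (log2 fold change -0.047), INCENP (0.078), CENPN (0.23), CENPK (0.79) and UBE2S (0.23), with adjusted p from 0.0662 to 0.815 (edgeR). BUB3 and INCENP levels overlapped between the groups, and in UBE2S every KO rat was above every WT rat by a small margin, 55.1 to 68.8 against 48.2 to 53.1 CPM.

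**Figure D2:**
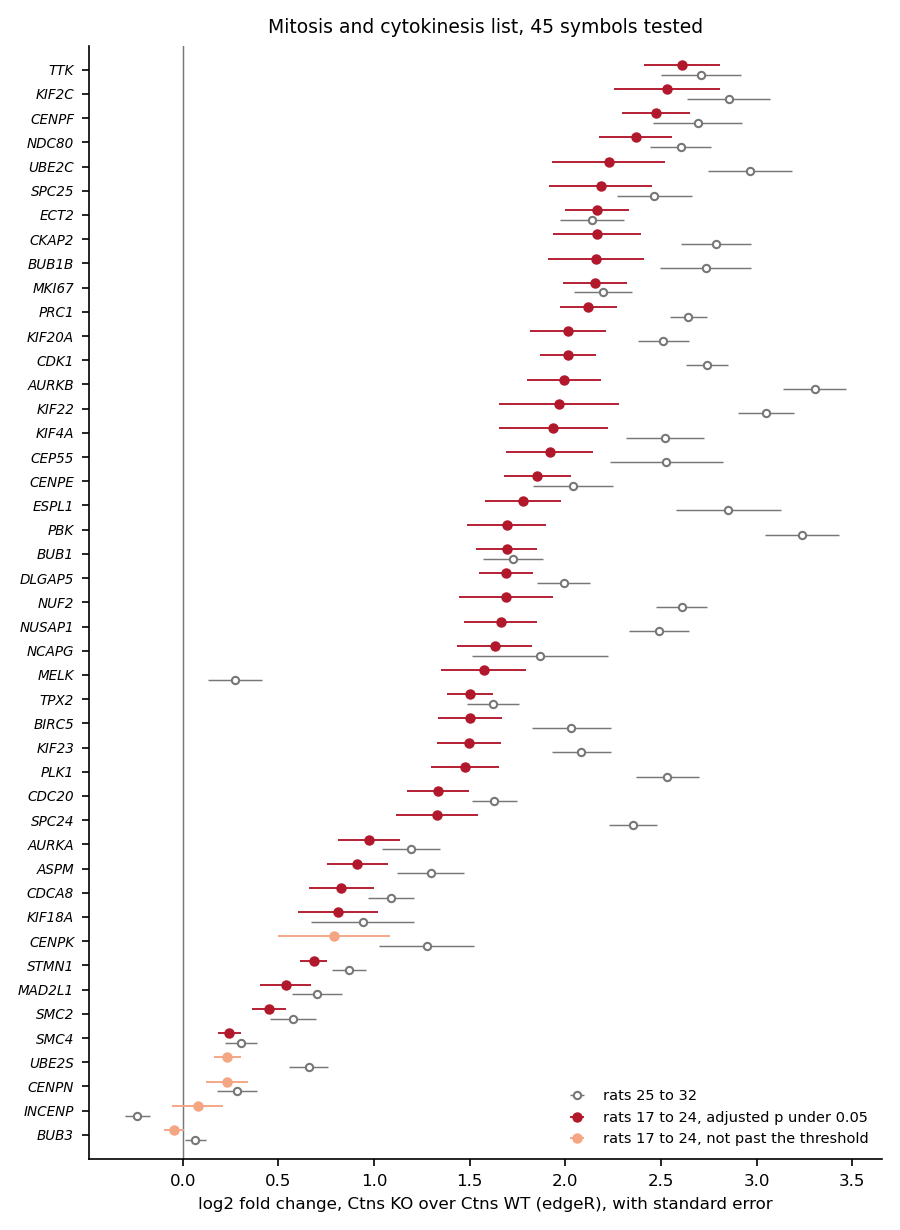
Log2 fold change of KO over WT with its SE for the 45 tested members of the mitosis list, in rats 17 to 24 and in rats 25 to 32. The median of the members is 1.69 in rats 17 to 24, and BUB3 and INCENP lie near 0.

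The promoters of the called mitosis members were read from RefSeq (build GRCr8, not the rn5 build the submitters name), from 250 bases before to 50 after the start of each gene. They were searched on both strands for 2 short motifs known from mitotic genes: the CCAAT box (CCAAT) and the cell cycle homology region, or CHR (TTTGAA). A promoter was matched for 36 of the 40 called members. Both motifs occurred together in 21 of them (58.3%), against 4.59% of the 9041 tested symbols with a matched promoter and 7.25% of all 27457 promoters. For the CHR alone the share was 72.2% against 11.6%, and for the CCAAT box alone 72.2% against 37.1%. Over all promoters the shares were 18.1% and 37.7%. No motif searched contains another, and a match describes the sequence and not a bound site. Both motifs are known from mitotic genes and 40 of the 45 tested members were called. These shares therefore describe the list and cannot tie the motifs to the change in KO rats. The promoters of 3 members that carry both motifs are printed with the motif letters in capitals.
CENPF, chr13:103760837-103761136, minus strand: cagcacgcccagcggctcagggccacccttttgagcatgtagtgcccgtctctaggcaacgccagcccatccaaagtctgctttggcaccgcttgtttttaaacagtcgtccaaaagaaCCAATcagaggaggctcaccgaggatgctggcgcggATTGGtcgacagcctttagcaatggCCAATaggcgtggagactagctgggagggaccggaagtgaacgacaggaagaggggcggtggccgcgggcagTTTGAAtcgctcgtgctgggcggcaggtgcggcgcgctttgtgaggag
PRC1, chr1:143659231-143659530, plus strand: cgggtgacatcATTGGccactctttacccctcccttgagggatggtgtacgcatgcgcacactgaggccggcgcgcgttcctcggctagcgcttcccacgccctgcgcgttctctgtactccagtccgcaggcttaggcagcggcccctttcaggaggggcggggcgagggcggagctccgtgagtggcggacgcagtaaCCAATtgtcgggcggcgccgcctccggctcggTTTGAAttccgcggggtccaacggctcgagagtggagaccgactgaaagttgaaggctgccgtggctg
CDK1, chr20:19265043-19265342, plus strand: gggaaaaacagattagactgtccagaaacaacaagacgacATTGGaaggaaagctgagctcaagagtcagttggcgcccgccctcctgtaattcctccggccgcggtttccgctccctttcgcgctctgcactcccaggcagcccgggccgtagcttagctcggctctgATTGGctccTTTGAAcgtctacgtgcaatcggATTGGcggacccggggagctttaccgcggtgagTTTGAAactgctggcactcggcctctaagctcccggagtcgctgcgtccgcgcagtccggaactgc

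DNA replication genes moved in the same direction by smaller amounts. Of 37 tested, 15 were called higher and 0 lower, with a median log2 fold change of 0.44, and 36 were above 0. MCM3, a subunit of the replicative helicase, stood at 5.001, 7.87, 8.55 and 8.63 CPM in KO and 3.16, 3.39, 2.81 and 2.92 CPM in WT, and MCM6, another, at 9.84, 13.9, 16.9 and 15.7 CPM in KO and 7.55, 7.49, 6.37 and 6.13 CPM in WT. KO 18 was the lowest KO rat for both, and neither overlapped WT. Their changes were 1.29 (SE 0.17, adjusted p = 0.000698, edgeR) and 1.03 (SE 0.15, adjusted p = 0.00185, edgeR). The helicase subunit MCM5 (1.70 ± 0.26), the maintenance methylation factor UHRF1 (1.96 ± 0.30) and thymidine kinase TK1 (0.71 ± 0.11) rose too, with adjusted p from 0.00198 to 0.00336 (edgeR). The polymerase clamp PCNA was not called (0.20, adjusted p = 0.0992, edgeR): its KO levels of 53.8 to 57.7 CPM and WT levels of 43.4 to 53.8 CPM met at WT 23. With KO rat 24 left out 10 members of the list were called higher.

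Promoters were matched for 13 of the 15 called replication genes. The E2F sites searched, TTTGGCGC and TTTCCCGC on both strands, occurred in 8 (61.5%), against 2.84% of the tested symbols, 1.53% of all promoters and 5.56% of the called mitosis members, while the CHR occurred in 7.69% of them. Uncalled members of the replication list were not set beside these, so the shares cannot tie the sites to the change in KO rats. The promoters of MCM3 and MCM6 carry 1 such E2F site each, in capitals.
MCM3, chr9:30733697-30733996, minus strand: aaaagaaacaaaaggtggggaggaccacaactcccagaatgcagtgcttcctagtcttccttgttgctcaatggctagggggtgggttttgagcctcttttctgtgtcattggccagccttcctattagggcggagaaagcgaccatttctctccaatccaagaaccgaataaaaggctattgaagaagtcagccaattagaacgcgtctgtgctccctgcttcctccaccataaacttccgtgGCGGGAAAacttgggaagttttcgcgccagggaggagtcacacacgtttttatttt
MCM6, chr13:42404303-42404602, minus strand: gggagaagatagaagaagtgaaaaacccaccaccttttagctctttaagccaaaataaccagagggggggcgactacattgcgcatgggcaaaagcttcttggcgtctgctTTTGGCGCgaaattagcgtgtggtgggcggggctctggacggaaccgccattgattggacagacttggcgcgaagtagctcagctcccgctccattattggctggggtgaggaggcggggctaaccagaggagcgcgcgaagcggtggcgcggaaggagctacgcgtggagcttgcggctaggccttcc

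Among 23 cyclins, cyclin-dependent kinases and cell cycle factors, 9 were called higher and 0 lower (median 0.32). Cyclin A2, which acts from S phase to mitosis, was at 4.38, 5.13, 6.39 and 4.99 CPM in KO and 1.48, 1.11, 0.906 and 1.16 CPM in WT. All KO rats were above all WT rats, and CCNA2 changed by 2.18 (SE 0.18, adjusted p = 2.66e-05, edgeR). The growth transcription factor MYC rose by 1.41 (SE 0.19, adjusted p = 0.00142, edgeR), the G1/S cyclin CCNE1 by 1.48 (SE 0.25, adjusted p = 0.00351, edgeR) and FOXM1, a transcription factor of mitotic genes, by 0.75 (SE 0.13, adjusted p = 0.00509, edgeR). Cyclin D1, the G1 cyclin, was not called: CCND1 was at 254, 348, 249 and 320.4 CPM in KO and 159, 216, 197 and 257 CPM in WT, with overlapping ranges (log2 fold change 0.50, SE 0.16, adjusted p = 0.12, edgeR).

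An inhibitor of the cycle, CDKN1A, was also among the symbols called higher. Of 20 cyclin-dependent kinase inhibitors and DNA damage response genes tested, 7 were called higher and 1 lower, with a median of 0.22; the 7 became 4 with KO rat 20 left out. CDKN1A, the kinase inhibitor p21, was at 20.004, 23.1, 15.7 and 24.8 CPM in KO and 6.72, 7.16, 4.498 and 5.9997 CPM in WT. The lowest KO rat, KO 22, was more than 2-fold above the highest WT rat, and the change was 1.78 (SE 0.17, adjusted p = 0.000151, edgeR). The pro-apoptotic factor PHLDA3 (0.83 ± 0.12) and the cyclin CCNG1 (0.40 ± 0.080) rose as well, and the stress-induced mTORC1 inhibitor SESN2 fell (-0.27 ± 0.059), with adjusted p from 0.00103 to 0.0161 (edgeR). MDM2, a ubiquitin ligase, was not called (0.14, SE 0.065, adjusted p = 0.241, edgeR).

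Markers of tubular injury were higher in the KO rats. They include HAVCR1, the membrane protein KIM-1 that injured proximal tubule cells put on their surface. HAVCR1 was at 32.4, 47.1, 33.8 and 54.2 CPM in KO and 3.85, 2.34, 2.72 and 3.82 CPM in WT. The lowest KO rat was far above the highest WT rat, with a log2 fold change of 3.73 (SE 0.24, adjusted p = 6.65e-05, edgeR). Its deposited counts are not whole numbers, which leaves its level uncertain. SPP1, osteopontin, a secreted phosphoprotein, was at 864, 1377, 1178 and 1413 CPM in KO and 337, 231, 185 and 214 CPM in WT, a change of 2.32 (SE 0.23, adjusted p = 0.00139, edgeR). WT 17 was the highest WT rat and KO 18 the lowest KO rat, and the groups did not overlap. IL24, a cytokine of the IL-10 family, was counted at 13, 19, 16 and 25 reads in the KO rats and at 0 in every WT rat, at least 24.8-fold higher in KO against a floor of 3 reads over the group. It passed the edgeR filter on low counts through its KO reads.

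Of 36 injury and dedifferentiation symbols tested, 14 were called higher and 1 lower, with a median of 0.29 (11 to 16 higher with 1 rat left out). LCN2, the siderophore-binding protein NGAL, was at 7.35, 10.1, 5.67 and 10.4 CPM in KO and 2.13, 2.43, 2.999 and 2.66 CPM in WT, a change of 1.71 (SE 0.20, adjusted p = 0.000323, edgeR). The fibrinogen beta chain FGB was at 11.8, 11.6, 12.1 and 13.7 CPM in KO and 5.003, 3.98, 3.405 and 3.18 CPM in WT, a change of 1.67 (SE 0.14, adjusted p = 2.16e-05, edgeR). Neither overlapped, and FGB varied little among the KO rats. The stress cytokine GDF15 (1.43 ± 0.12), the hyaluronan receptor CD44 (0.92 ± 0.11), the adhesion molecule VCAM1 (0.59 ± 0.095), the intermediate filament VIM (0.52 ± 0.091) and the protease inhibitor TIMP1 (0.75 ± 0.14) rose by smaller amounts, with adjusted p from 2.16e-05 to 0.00547 (edgeR). SOX9, a transcription factor of regenerating tubules, was at 1.27, 2.91, 3.43 and 2.97 CPM in KO and 1.23, 1.89, 1.16 and 1.54 CPM in WT and was not called (0.85, SE 0.28, adjusted p = 0.0982, edgeR). KO 18 lay within the WT range and the other 3 KO rats above it. The keratin KRT7 was the 1 member called lower (-0.24, SE 0.066, adjusted p = 0.0484, edgeR), a call kept only with WT rat 23 left out among the 8 single omissions.

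Immediate early genes, transcription factors switched on within minutes of a stimulus, were also higher in KO. In this list, 8 of 19 were called higher and 0 lower, with a median of 0.34, and 5 were called higher with WT rat 21 or KO rat 24 left out. EGR1 was at 11.7, 16.9, 13.6 and 18.5 CPM in KO and 8.65, 8.33, 6.65 and 8.34 CPM in WT. For EGR1, the log2 fold change was 0.93 (SE 0.14, adjusted p = 0.00225, edgeR). FOS was at 2.29, 5.62, 3.32 and 6.13 and 1.44, 2.25, 1.34 and 1.22 CPM, a log2 fold change of 1.47 (SE 0.32, adjusted p = 0.0217, edgeR). FOS was uneven among the KO rats, higher in KO 20 and KO 24 than in KO 18 and KO 22. None of the 19 circadian clock genes was called in edgeR, DESeq2 or limma-voom, and 0 had an unadjusted p under 0.05, while 1 was called higher with WT rat 17 left out. Their summed level was 959 to 1284 CPM in the KO rats and 751 to 1358 CPM in the WT rats.

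Genes of proximal tubule transport moved less, and mostly downward. The summed proximal tubule markers given above were lower in every KO rat than in any WT rat, but SLC34A1 made up most of that sum and 2 of the 6 markers were called lower. Without SLC34A1, left out after its values were seen, the other 5 summed to 3549 to 3913 CPM in KO and 3839.8 to 4998 CPM in WT, overlapping. The part of these markers in the results was not tested. SLC34A1, the main sodium phosphate transporter of the brush border and one of those markers, was at 4251, 4612, 4485 and 4585 CPM in KO and 5541, 5628, 6330.0 and 4991 CPM in WT. All KO rats were lower, by a log2 fold change of -0.33 (SE 0.076, adjusted p = 0.021, edgeR). The second phosphate transporter SLC34A3 (-0.22 ± 0.050), their scaffold PDZK1 (-0.27 ± 0.068) and the water channel AQP1 (-0.32 ± 0.083) were the other 3 called lower among 29 sugar, phosphate and acid-base genes, with adjusted p from 0.016 to 0.0342 (edgeR). The median of the list was -0.11. The number called lower was 0 with WT rat 21 or KO rat 24 left out, 1 with KO rat 20 left out and 2 with KO rat 18, KO rat 22 or WT rat 23 left out. SLC5A2, the glucose transporter SGLT2, was at 657, 611, 651 and 618 CPM in KO and 657, 687, 741 and 672 CPM in WT, KO 18 and WT 17 being nearly equal, and was not called (-0.12, SE 0.057, adjusted p = 0.249, edgeR).

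The 1 member of that list called higher was CA3, a carbonic anhydrase best known from muscle and liver, which had the largest rise among called symbols with a mean of at least 1 CPM. CA3 was at 3.66, 8.71, 4.91 and 6.86 CPM in KO and 0.410, 0.240, 0.312 and 0.128 CPM in WT. It was near absent in WT rats and present in all KO rats, with a log2 fold change of 4.48 (SE 0.36, adjusted p = 3.91e-05, edgeR). With 10, 8, 10 and 4 reads in the WT rats, CA3 passed the edgeR filter on low counts through its KO reads. Its place among the symbols tested therefore rests on its rise.

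Of 23 amino acid transporters, 4 were called lower and 1 higher, with a median of -0.19. SLC6A13, a carrier of GABA and taurine, was at 45.9, 51.6, 47.8 and 48.7 CPM in KO and 69.6, 68.4, 82.4 and 70.4 CPM in WT, a wide separation for this list (-0.58, SE 0.067, adjusted p = 0.000277, edgeR). The aromatic amino acid carrier SLC16A10 (-0.36 ± 0.077), the glutamate transporter SLC1A1 (-0.21 ± 0.058) and the neutral amino acid transporter SLC6A18 (-0.21 ± 0.057) fell by less, with adjusted p from 0.0147 to 0.0459 (edgeR). The number called lower was 2 with WT rat 19, KO rat 20, WT rat 21 or KO rat 24 left out or with upper quartile factors in edgeR or with all 16 rats in the fit. SLC7A11, which brings cystine into the cell in exchange for glutamate, went the other way from a very low base: 11, 23, 19 and 28 reads in KO against 3, 0, 2 and 0 reads in WT (3.91, SE 0.63, adjusted p = 0.00259, edgeR). It passed the edgeR filter on low counts through its KO reads, so its place among the symbols tested rests on its rise. With a minimum mean of 1 CPM 0 members of this list were called higher.

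The other proximal tubule lists held few calls. None of the 14 endocytosis genes was called in edgeR, DESeq2 or limma-voom, 2 had an unadjusted p under 0.05, and 1 was called lower with WT rat 19 left out. All 14 were below 0 (median -0.090), and 13 of 14 with upper quartile scaling. CUBN, the receptor cubilin, was at 758, 850.4, 922 and 875 CPM in KO and 939, 837, 1229 and 1187 CPM in WT, overlapping (-0.30, SE 0.12, adjusted p = 0.175, edgeR). Of 17 proximal tubule transcription factors none was called in edgeR, with a median of -0.21, and 7 had an unadjusted p under 0.05. HNF4A, which sets the proximal tubule programme, was at 240.1, 226, 259 and 242 and 255, 273, 293 and 350.5 CPM in KO and WT (-0.28, SE 0.088, adjusted p = 0.0842, edgeR). The highest KO rat reached just above the lowest WT rat. The number called lower was 1 with WT rat 21 left out or with all 16 rats in the fit, 2 with KO rat 22 left out, 3 with DESeq2 in place of edgeR and 4 with WT rat 17 left out, and 0 in limma-voom. ESPN, an actin bundler of microvilli, was the 1 brush border member of 19 called lower (-0.24, SE 0.060, adjusted p = 0.0298, edgeR), and SLCO3A1 the 1 of 16 organic ion transporters called higher (0.39, SE 0.081, adjusted p = 0.0125, edgeR). With 1 rat left out these lists had 0 to 3 and 0 to 3 members called in those directions.

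Amino acid catabolism and gluconeogenesis, which the proximal tubule carries out alongside the liver, was lower as a list. Of 27 genes tested 8 were called lower and 0 higher, 25 were below 0 and the median was -0.24; 5 were called lower with KO rat 24 left out. FBP1, fructose-1,6-bisphosphatase of gluconeogenesis, was at 1026, 1027, 1095 and 997 CPM in KO and 1327, 1225, 1537 and 1248 CPM in WT, a modest but even separation (-0.36, SE 0.074, adjusted p = 0.0103, edgeR). The tryptophan pathway enzyme HAAO (-0.41 ± 0.069), pyruvate carboxylase PC (-0.34 ± 0.065), DOPA decarboxylase DDC (-0.24 ± 0.048), the creatine enzyme GAMT (-0.42 ± 0.088), the tyrosine pathway enzyme FAH (-0.36 ± 0.079), the glycine pathway enzyme DMGDH (-0.34 ± 0.073) and the methyltransferase BHMT2 (-0.23 ± 0.063) fell too, with adjusted p from 0.00319 to 0.0484 (edgeR). Members with larger estimates were too uneven among WT rats to be called. PCK1, the regulated step of gluconeogenesis, was at 2375, 2429.7, 3218 and 2076 CPM in KO and 2095, 5240.3, 4701 and 5954 CPM in WT (-0.83, SE 0.32, adjusted p = 0.198, edgeR), where WT 17 lay at the KO level.

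**Figure D3:**
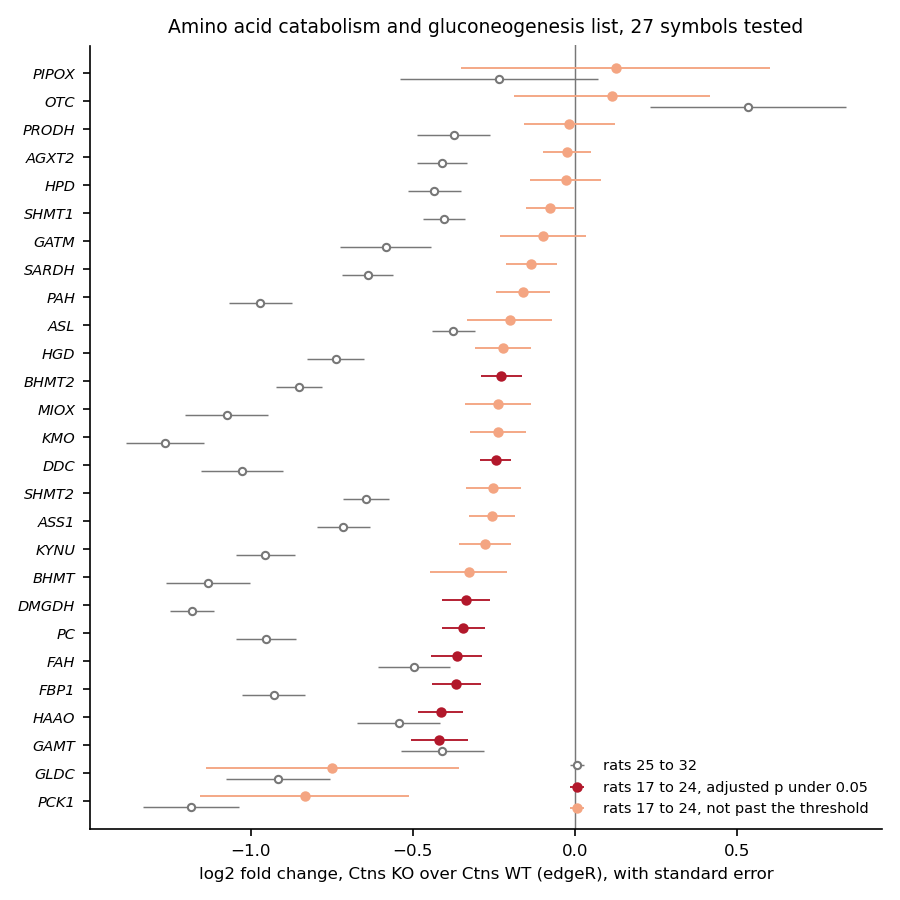
Log2 fold change of KO over WT with its SE for the 27 tested members of the amino acid catabolism and gluconeogenesis list, in rats 17 to 24 and rats 25 to 32. Of the members 25 are below 0 in rats 17 to 24, with a median of -0.24, and most lie further below 0 in rats 25 to 32.

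Fatty acid oxidation, the main fuel of proximal tubule cells, had 6 of 35 genes called lower and 0 higher, with a median of -0.20. They included the very long chain dehydrogenase ACADVL (-0.22 ± 0.052) and HADH (-0.34 ± 0.094), with adjusted p from 0.0202 to 0.0496 (edgeR). The number called lower was 1 with KO rat 24 left out, 2 with WT rat 21 or KO rat 22 left out, 3 with KO rat 20 left out and 10 with DESeq2 in place of edgeR. PPARA, the transcription factor of the pathway, was at 16.7, 21.3, 26.3 and 25.7 CPM in KO and 21.7, 35.7, 28.7 and 29.7 CPM in WT and was not called (-0.37, SE 0.18, adjusted p = 0.285, edgeR). Of 18 glycolysis and pentose phosphate genes 1 was called lower and 0 higher, and the number called lower was 0 with KO rat 18, KO rat 20, WT rat 21 or KO rat 24 left out, 2 with WT rat 17 or WT rat 19 left out and 3 with DESeq2 in place of edgeR.

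HAO1, a peroxisomal oxidase that turns glycolate into glyoxylate and is known from liver, rose sharply. It was at 5.33, 6.94, 6.64 and 8.31 CPM in KO and 1.23, 0.899, 0.594 and 0.770 CPM in WT. The groups were far apart, and the change was 2.98 (SE 0.21, adjusted p = 1.23e-05, edgeR). BLVRA, which reduces biliverdin from haem breakdown to bilirubin, was at 75.3, 43.9, 63.1 and 67.6 CPM in KO and 20.6, 24.5, 19.3 and 24.5 CPM in WT (1.49, SE 0.16, adjusted p = 0.00113, edgeR). KO 20 was the lowest KO rat and still above all WT rats.

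Transcripts of the mitochondrial genome took 21.4 ± 0.71% of reads in KO and 19.1 ± 1.54% in WT (SD, n = 4 each), a difference that did not pass a two-sided exact permutation test (p = 0.114). All 12 such symbols were above 0 (median 0.17) and none was called in edgeR, 4 with an unadjusted p under 0.05. The number called higher was 1 with DESeq2 in place of edgeR and 3 with WT rat 17 left out, and 0 in limma-voom. Of 39 respiratory chain subunits coded in the nucleus, 35 were below 0 with a median of -0.089. The 1 called lower was the complex I subunit NDUFB8, at 223, 228, 213 and 216 CPM in KO and 265, 269.7, 292 and 303 CPM in WT. NDUFB8 had a log2 fold change of -0.36 (SE 0.057, adjusted p = 0.00218, edgeR). Subunits called lower numbered 0 with all 16 rats in the fit, 2 with WT rat 19 or WT rat 23 left out and 7 with DESeq2 in place of edgeR.

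Genes of the lysosome, where cystine collects, moved little as lists. Of 35 hydrolases, 1 was called higher and 1 lower (median -0.023), and with WT rat 17 left out 2 were called higher. NEU1, the sialidase, was at 140.2, 151, 145 and 145 CPM in KO and 208, 198, 228 and 184 CPM in WT, clearly apart (-0.49, SE 0.065, adjusted p = 0.000648, edgeR). The protease CTSZ rose by 0.50 (SE 0.10, adjusted p = 0.0123, edgeR). Cathepsin D was at 969, 973, 898 and 1020.3 CPM in KO and 967, 772, 836 and 757 CPM in WT and was not called (0.21, SE 0.079, adjusted p = 0.133, edgeR). Of 27 membrane proteins 4 were called higher and 0 lower (median 0.0077), namely GPNMB, CD68, the histidine transporter SLC15A3 and MFSD12, of which GPNMB and CD68 are also macrophage markers. GPNMB, a glycoprotein induced by lysosomal stress, was at 9.90, 15.99, 10.7 and 16.1 CPM in KO and 2.34, 2.91, 2.78 and 2.73 CPM in WT, a change of 2.29 (SE 0.18, adjusted p = 2.16e-05, edgeR). The 4 became 2 with KO rat 20, WT rat 21, KO rat 22 or WT rat 23 left out.

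No V-ATPase subunit, of the pump that acidifies the lysosome, was called among 20 tested in edgeR, DESeq2 or limma-voom (median -0.040; 0 with an unadjusted p under 0.05). Of 35 genes of mTORC1, its lysosomal anchor and amino acid sensing, SESN2 was the 1 called, lower as given above (median -0.032), a number that was 0 with all 16 rats in the fit, 2 with DESeq2 in place of edgeR and 3 with WT rat 23 left out. Of 31 autophagy genes 2 were called lower (median -0.037; 1 to 2 with 1 rat left out): the mitophagy kinase PINK1, at 131 to 141 CPM in KO and 163 to 173 CPM in WT (-0.30, SE 0.049, adjusted p = 0.00259, edgeR), and the tethering subunit VPS11 (-0.20, SE 0.051, adjusted p = 0.0295, edgeR). The E-box CACGTG, the motif of the lysosomal transcription factor TFEB, was in 0 of the 5 matched promoters of called lysosomal members, in 9.34% of those of tested symbols and in 6.65% of all promoters. With only 5 promoters, 0 matches cannot be told apart from these shares.

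Stress response lists had a few strong members and medians near 0. Haem oxygenase HMOX1, which opens the haem ring, was at 14.6, 10.6, 10.6 and 11.4 CPM in KO and 3.90, 4.70, 4.25 and 5.42 CPM in WT. For HMOX1, the log2 fold change was 1.37 (SE 0.14, adjusted p = 9.39e-05, edgeR). With the sulfiredoxin SRXN1 (1.04, SE 0.14, adjusted p = 0.000881, edgeR) and SLC7A11 it made up the 3 of 20 NRF2 targets called higher (median 0.029), and with the copper oxidase CP, ceruloplasmin (0.90, SE 0.12, adjusted p = 0.00194, edgeR), the 2 of 16 iron genes. Of 33 genes of the ATF4 and unfolded protein response 3 were called higher, ATF3 (1.42, SE 0.22, adjusted p = 0.00263, edgeR), the mitochondrial folate enzyme MTHFD2 (0.84, SE 0.19, adjusted p = 0.0191, edgeR) and SLC7A11, and SESN2 lower (median 0.0095). Members of this list called lower numbered 2 with WT rat 19 left out or with limma-voom, 3 with KO rat 18 left out and 4 with DESeq2 in place of edgeR. With a minimum mean of 1 CPM, 2 members of this list and 2 NRF2 targets were called higher. ATF4 itself was at 171 to 215 CPM in KO and 177 to 189.6 CPM in WT (0.034, SE 0.071, adjusted p = 0.855, edgeR). The ATF4 site searched, TGATGCAA, was in 0 of 3 matched promoters of the called members, in 0.509% of those of tested symbols and in 0.743% of all promoters. With only 3 promoters, 0 matches cannot be told apart from shares this small. In sterol and fatty acid synthesis, sterol uptake included, 3 of 30 were called higher, HMGCS1, of the mevalonate pathway, among them (0.22, SE 0.059, adjusted p = 0.0469, edgeR). With 1 rat left out this number was 1 to 6.

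Genes of immune cells were higher in the KO rats. The 4 macrophage markers used for the tissue check summed to 100.0 to 113 CPM in KO and 67.0 to 85.9 CPM in WT, without overlap. Of these, 3 were called higher, while ADGRE1, the F4/80 antigen, was at 8.72 to 11.97 CPM in KO and 10.4 to 12.9 CPM in WT. Of the 3 lymphocyte markers CD3E alone was called higher, and the B cell markers CD79A and MS4A1 had 0 to 8 reads a rat. How far cell numbers account for the lists that follow was not tested. Of 26 macrophage and myeloid genes 15 were called higher and 0 lower, with a median of 0.54 (10 to 16 higher with 1 rat left out). CSF1R, the receptor that keeps macrophages alive, was at 39.9, 43.1, 46.4 and 44.6 CPM in KO and 30.6, 31.4, 27.2 and 29.1 CPM in WT. For CSF1R, the log2 fold change was 0.56 (SE 0.066, adjusted p = 0.000335, edgeR). C1QB, a complement subunit made by macrophages, was at 28.1, 26.5, 29.6 and 33.4 and 15.6, 18.4, 12.3 and 18.6 CPM, a log2 fold change of 0.86 (SE 0.12, adjusted p = 0.00199, edgeR). The groups stood apart for both. The NADPH oxidase subunit CYBB (0.73 ± 0.085), the mannose receptor MRC1 (1.33 ± 0.26), the lipid receptor TREM2 (1.74 ± 0.31) and the pan-leukocyte phosphatase PTPRC (0.66 ± 0.12) rose as well, with adjusted p from 0.000303 to 0.00953 (edgeR).

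Of 26 listed lymphocyte genes 23 were in the table and 15 were tested, and 7 of these were called higher and 0 lower (median 0.97). At such low levels a symbol can pass the edgeR filter on low counts through its KO reads alone. The median of those tested can therefore favour rises. CD3E, a chain of the T cell receptor complex, was at 1.242, 1.98, 1.44 and 1.23 CPM in KO and 0.574, 0.359, 0.4998 and 0.706 CPM in WT. For CD3E, the log2 fold change was 1.46 (SE 0.27, adjusted p = 0.00547, edgeR). CD8A, of cytotoxic T cells, was at 3.17, 3.09, 3.14 and 3.38 and 1.89, 1.74, 1.53 and 1.12 CPM, a log2 fold change of 1.03 (SE 0.17, adjusted p = 0.00323, edgeR). All KO rats were above all WT rats at levels of a few CPM. The number was 3 with WT rat 21, KO rat 22 or WT rat 23 left out and 4 with KO rat 18 or KO rat 20 left out or with a minimum mean of 1 CPM.

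Of 33 chemokine and cytokine genes 12 were called higher and 0 lower, with a median of 0.35 (9 to 15 higher with 1 rat left out). CXCL10, which draws in T cells, was at 9.15, 11.6, 13.3 and 11.9 CPM in KO and 3.404, 4.58, 3.65 and 5.29 CPM in WT (1.43, SE 0.15, adjusted p = 0.000176, edgeR). The oncostatin receptor OSMR (1.09 ± 0.13), the cytokine LIF (1.56 ± 0.33) and their shared signal carrier STAT3 (0.35 ± 0.063) rose with it, with adjusted p from 0.000325 to 0.0139 (edgeR). Of 26 complement and coagulation genes 6 were called higher, FGB and C4A (1.61, SE 0.16, adjusted p = 0.000105, edgeR, with reads that are not whole) among them, a number that was 3 with KO rat 22 or KO rat 24 left out and 10 with DESeq2 in place of edgeR. Interferon response and antigen presentation had 4 of 30 called higher, the immunoproteasome subunit PSMB8 (0.62, SE 0.081, adjusted p = 0.000656, edgeR) and the class I light chain B2M (0.29, SE 0.064, adjusted p = 0.0159, edgeR) among them, and 1 lower (TAP2, -0.63, SE 0.17, adjusted p = 0.0448, edgeR, with reads that are not whole and a call kept only with WT rat 17 left out). The median was 0.38, and the number higher was 2 with KO rat 20 or KO rat 24 left out, 11 with DESeq2 in place of edgeR and 12 with WT rat 19 left out.

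Collagens and matrix genes rose in part. Of 41 tested 11 were called higher and 0 lower, with a median of 0.18 (8 to 13 higher with 1 rat left out). The 2 fibroblast markers summed to 85.7 to 108 CPM in KO and 73.1 to 87.7 CPM in WT, overlapping. COL1A1, of fibrillar collagen, was at 29.7, 38.2, 38.5 and 38.3 CPM in KO and 26.4, 23.9, 22.7 and 22.2 CPM in WT. COL1A1 had a log2 fold change of 0.61 (SE 0.090, adjusted p = 0.00153, edgeR). COL18A1, of basement membranes, was at 209, 245, 224 and 251 and 175, 158, 164 and 156 CPM (0.51, SE 0.066, adjusted p = 0.000569, edgeR), and neither overlapped between the groups. COL3A1 (0.62 ± 0.11), the basement membrane collagen COL4A1 (0.38 ± 0.073) and the gelatinase MMP2 (0.75 ± 0.11) rose too, with adjusted p from 0.00132 to 0.00916 (edgeR). Of 16 genes of fibroblasts, pericytes and smooth muscle 1 was called higher, PDPN (0.60, SE 0.12, adjusted p = 0.0135, edgeR), and 1 lower. The number higher was 2 with WT rat 17, KO rat 18 or WT rat 23 left out or with limma-voom or with upper quartile factors in edgeR and 3 with DESeq2 in place of edgeR.

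The TGF-beta and BMP list split in direction, with 3 called higher and 3 lower of 25 (median 0.040). LTBP2, a latent TGF-beta binding protein of microfibrils, was at 6.67, 10.4, 6.57 and 8.91 CPM in KO and 2.91, 1.98, 1.37 and 2.98 CPM in WT (1.83, SE 0.24, adjusted p = 0.00104, edgeR). The activin inhibitor FST rose by 2.58 (SE 0.40, adjusted p = 0.00198, edgeR) and the ligand TGFB1 by 0.41 (SE 0.080, adjusted p = 0.00838, edgeR). The inhibitory SMAD7 (-0.29 ± 0.057), the BMP target ID1 (-0.51 ± 0.11) and the ligand BMP4 (-0.40 ± 0.097) fell, with adjusted p from 0.00888 to 0.0292 (edgeR). The number called lower was 1 to 3 with 1 rat left out, and 1 without WT rat 21, KO rat 22 or KO rat 24. Of 30 EGF, IGF and FGF ligands and receptors NRG1 was called higher (0.70, SE 0.14, adjusted p = 0.0107, edgeR) and 0 lower. Those called lower numbered 1 with KO rat 22 left out or with all 16 rats in the fit, 2 with WT rat 17 or WT rat 23 left out and 4 with DESeq2 in place of edgeR.

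Lists of other nephron segments held few calls. None of 17 thick limb and distal tubule genes (median -0.029), 12 podocyte genes (-0.12, 11 of them below 0) and 6 red blood cell genes (-0.12) was called in edgeR. At an unadjusted p under 0.05 these lists had 2, 2 and 0 members, and DESeq2 called 1, 0 and 0 and limma-voom none. With WT rat 21 left out 1 podocyte gene was called lower, and with WT rat 19 or WT rat 23 left out 1 thick limb gene was, while 1 was called higher without WT rat 17. UMOD, uromodulin of the thick limb, was at 2551, 2664, 2474 and 2578 CPM in KO and 2485, 2188, 2889.9 and 2797 CPM in WT, overlapping (-0.013, SE 0.083, adjusted p = 0.958, edgeR). The podocyte protein NPHS1, nephrin, was at 172, 190.1, 172 and 199 and 189, 224, 189 and 181 CPM (-0.094, SE 0.075, adjusted p = 0.542, edgeR). In the endothelial list of 20 the sialomucin EMCN was called lower (-0.21 ± 0.059), in the collecting duct list of 15 KRT7, and in the tight junction list of 22 the claudins CLDN4 (0.35 ± 0.064) and CLDN1 (0.55 ± 0.14) higher, with adjusted p from 0.0059 to 0.0496 (edgeR). With 1 rat left out these 3 lists had 0 to 1, 0 to 1 and 1 to 2 members called in those directions. The 2 endothelial markers in the table summed to 108.7 to 122.6 CPM in KO and 123.4 to 131.5 CPM in WT, without overlap. EMCN made up most of that sum, and the other marker, CDH5, overlapped at 23.1 to 25.4 CPM in KO and 18.8 to 24.6 CPM in WT. In the list of vitamin D, calcium and blood pressure control 2 of 14 were called lower and 0 higher, with a median of 0.060 and 8 above 0. PTH1R, the parathyroid hormone receptor of the proximal tubule, was called lower, with a log2 fold change of -0.34 (SE 0.064, adjusted p = 0.0066, edgeR).

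The single largest fall was GAL, the neuropeptide galanin, which was all but absent in KO rats. It had 1, 1, 1 and 0 reads in the KO rats and 199, 195, 269 and 226 reads in the WT rats, a WT to KO ratio of reads of 291 (95% exact interval 99.3 to 1413.7, for counting error only). GAL passed the edgeR filter on low counts through its WT reads, so its place among the symbols tested rests on its WT level. The kinase STK32C was at 0.327, 0.312, 0.361 and 0.379 CPM in KO and 0.984, 1.05, 2.66 and 2.18 CPM in WT (-2.31, SE 0.37, adjusted p = 0.00239, edgeR), with WT 21 and WT 23 above WT 17 and WT 19. SPHKAP, an anchor protein for protein kinase A, was at 2.81, 3.68, 2.17 and 1.64 CPM in KO and 6.36, 7.01, 7.84 and 7.41 CPM in WT (-1.48, SE 0.20, adjusted p = 0.00083, edgeR), and all 4 KO rats were well below WT.

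The remaining large falls were smaller than these. The zinc transporter SLC39A4 (-1.02 ± 0.14), LY6G6E (-0.94 ± 0.15) and SH2D7 (-0.87 ± 0.16) stayed called with each rat left out in turn, with adjusted p from 0.000881 to 0.00608 (edgeR). CNDP1, a dipeptidase of carnosine, was at 5.33, 12.6, 6.64 and 10.78 CPM in KO and 23.5, 22.2, 16.4 and 16.7 CPM in WT, apart from WT but uneven among KO (-1.15, SE 0.28, adjusted p = 0.0473, edgeR), and its call was lost with any of 6 rats left out. RASAL1, a Ras GTPase activator (-0.99 ± 0.26), SLC51B, a subunit of a bile acid exporter (-0.88 ± 0.20), MTTP, which loads lipid onto apolipoprotein B (-0.87 ± 0.20), the dipeptidase DPEP2 (-0.87 ± 0.19) and the homeobox gene CDX4 (-0.84 ± 0.20) lost theirs with 1 or more single rats left out, with adjusted p from 0.0161 to 0.0365 (edgeR). Among the largest rises the same held for REC114, a gene of meiotic recombination, at 7.58, 3.33, 3.97 and 5.44 CPM in KO and 0.123, 0.419, 1.37 and 1.86 CPM in WT. For REC114, the log2 fold change was 2.39 (SE 0.58, adjusted p = 0.049, edgeR). REC114, with 3 reads in WT 17, also passed the edgeR filter on low counts through its KO reads.

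In rats 25 to 32 the same comparison called 5100 of 11633 symbols (43.8%), 2534 higher and 2566 lower. Of the 589 symbols called higher in rats 17 to 24, 546 were called higher there, 1 lower, 41 not called and 1 not tested; of the 254 called lower, 197 were called lower, 0 higher, 55 not called and 2 not tested. The 743 symbols called in the same direction were 88.1% of those called in rats 17 to 24 and 14.6% of those called in rats 25 to 32. The median of the 588 higher symbols with a value in both was 0.81 in rats 17 to 24 and 1.23 in the other range, and that of the 252 lower ones -0.31 and -0.54. Since those symbols were picked by their call in rats 17 to 24, these medians are given as a description. Over all 11496 symbols tested in both ranges, 9140 (79.5%) had the larger absolute change in rats 25 to 32.

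**Figure D4:**
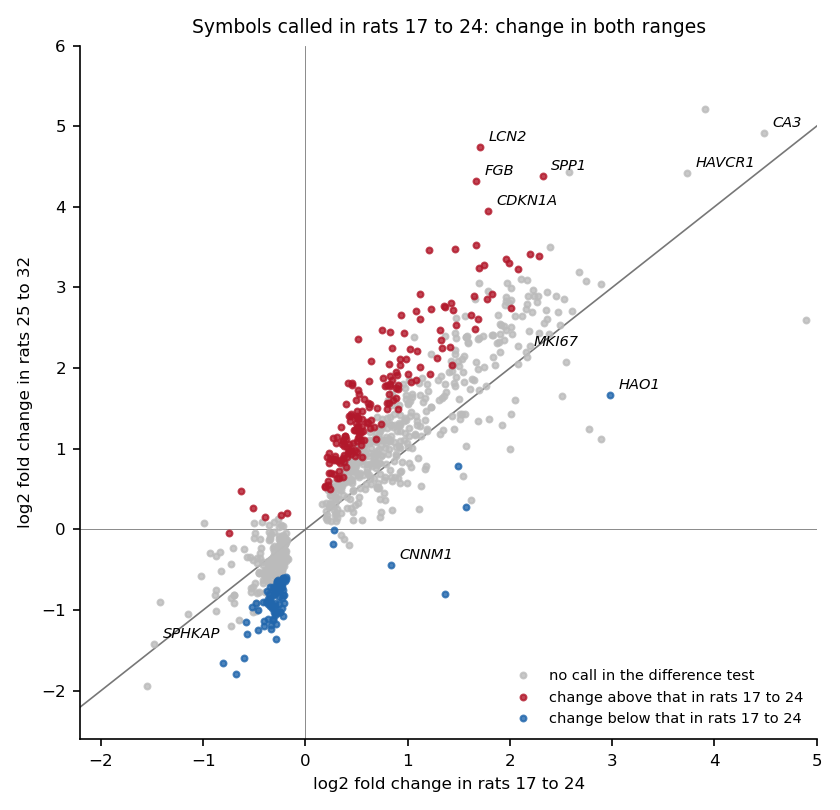
Log2 fold change of KO over WT in rats 17 to 24 (horizontal) against rats 25 to 32 (vertical) for symbols called in rats 17 to 24, with the line of equal change. Of 840 with a value in both ranges 835 are drawn and GAL, GALNT13, IL24, PKD2L1 and STK32C lie outside; 495 of 588 rises have the larger absolute change in rats 25 to 32, and MKI67 lies close to the line.

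A test of the difference between the genotype changes of the 2 ranges (interaction term, edgeR) called 1745 of 11839 symbols (14.7%). The absolute change was larger in rats 25 to 32 for 1710 of them and in rats 17 to 24 for 22, the others lacking a value in at least 1 range, and 1476 of the 1745 were not called in rats 17 to 24. Of the 589 symbols higher in rats 17 to 24, 171 rose more in rats 25 to 32, 7 rose less or reversed and 411 were not called; for the 254 lower ones the numbers were 76, 6 and 172. What separates the ranges is not given in the sources used here, so no cause was assigned to the difference. The number called was 1135 without KO rat 22, 1163 without WT rat 27 and 1010 without KO rat 28.

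**Figure D5:**
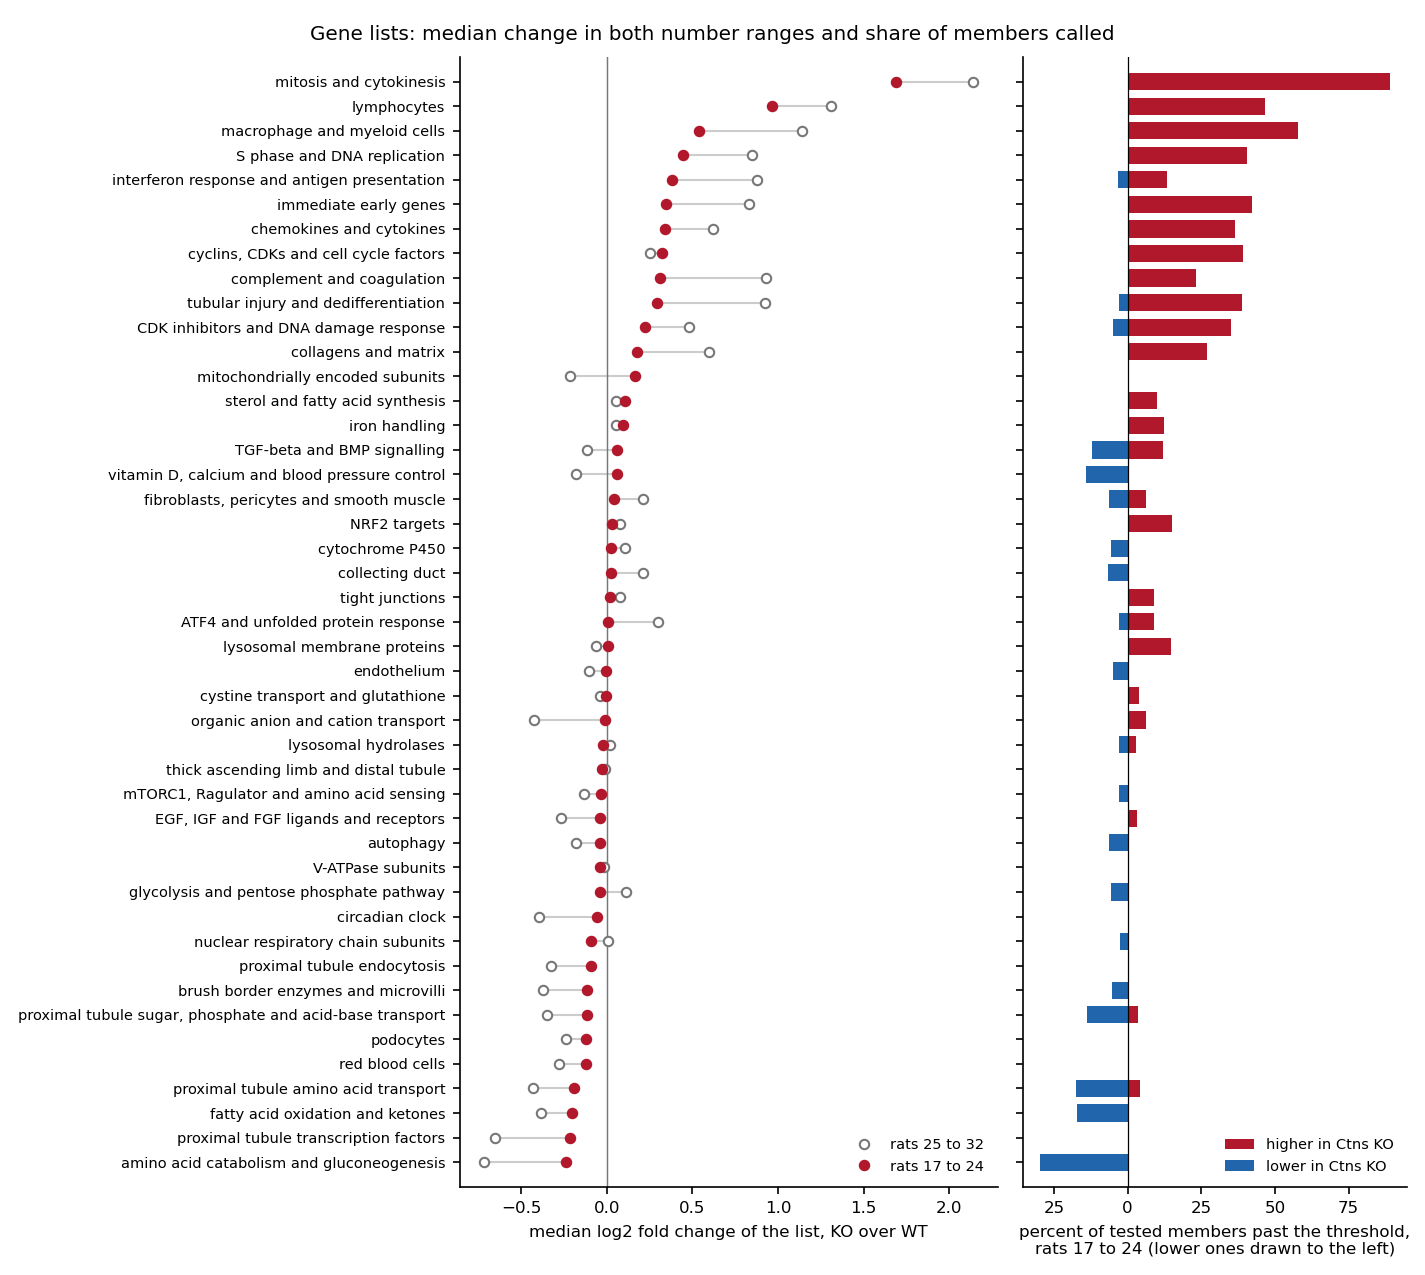
Median log2 fold change of the tested members of 45 gene lists in rats 17 to 24 and 25 to 32, and the percent of members called higher or lower in rats 17 to 24. The mitosis list has the largest median in both ranges, and the injury list moves from 0.29 to 0.92.

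Most mitosis genes had the larger change in rats 25 to 32, while the test of the difference called few of them. Of 45 members with a value in both ranges, 43 had the larger absolute change in rats 25 to 32 (95.6%), beside 79.5% of all symbols. The median of these 45 members was 1.69 in rats 17 to 24 and 2.14 in rats 25 to 32. Of 46 members in the test of the difference, 9 rose more in the latter range and 1 less. MKI67 changed by 2.15 and 2.197 (difference 0.045, SE 0.23, adjusted p = 0.912, edgeR) and CENPF by 2.47 and 2.69 (difference 0.22, SE 0.31, adjusted p = 0.645, edgeR). CDK1 rose more in rats 25 to 32 (difference 0.73, SE 0.18, adjusted p = 0.0124, edgeR), and MELK, a mitotic kinase, less. MELK was at 2.58, 2.77, 3.32 and 2.69 CPM in KO and 1.31, 1.08, 0.594 and 0.866 CPM in WT in rats 17 to 24. Its log2 fold change was 1.57 there and 0.27 in rats 25 to 32 (difference -1.30, SE 0.26, adjusted p = 0.00412, edgeR).

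Injury genes moved further in rats 25 to 32. The median of the injury list was 0.29 against 0.92 there, and 19 of 36 members rose more in the latter, 0 less. LCN2 had the largest such difference among symbols with a mean of at least 1 CPM. In rats 25 to 32 it was at 57.5, 119.8, 76.1 and 53.4 CPM in KO and 2.96, 2.95, 2.39 and 3.14 CPM in WT. Its log2 fold change of 1.71 in rats 17 to 24 stood beside 4.74 there (difference 3.04, SE 0.38, adjusted p = 0.000217, edgeR). FGB (2.66 ± 0.26), the fibrinogen gamma chain FGG (2.395 ± 0.45), the adrenergic receptor ADRA1D (2.25 ± 0.32), the aldo-keto reductase AKR1B10 (2.22 ± 0.44, with reads that are not whole) and CDKN1A (2.17 ± 0.22) followed, with adjusted p from 3.14e-05 to 0.00384 (edgeR). AKR1B10 had KO means of 2.67 CPM in rats 17 to 24 and 1.51 CPM in rats 25 to 32, and WT means of 1.59 and 0.195 CPM. FGB had KO means of 12.3 and 24.9 CPM and WT means of 3.89 and 1.23 CPM. CPM were scaled within each range. SPP1 rose more as well (2.06, SE 0.26, adjusted p = 0.000217, edgeR), whereas for HAVCR1 a difference was not shown (3.73 and 4.41, difference 0.69, SE 0.28, adjusted p = 0.105, edgeR).

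Among catabolic genes 16 of 27 fell further in rats 25 to 32, where 25 were called lower and the median was -0.71. FBP1 changed by -0.36 and -0.93 (difference -0.56, SE 0.13, adjusted p = 0.00958, edgeR), and SLC34A1 by -0.33 and -0.93 (difference -0.60, SE 0.11, adjusted p = 0.00253, edgeR). The transcription factors HNF4A and PPARA, not called in rats 17 to 24, differed by -0.82 (SE 0.17, adjusted p = 0.00537, edgeR) and -1.42 (SE 0.37, adjusted p = 0.0202, edgeR). Mitochondrially encoded symbols had a median of 0.17 among rats 17 to 24 and -0.22 among rats 25 to 32, and 6 of 12 passed the test of the difference, MT-CO1 by -0.40 (SE 0.12, adjusted p = 0.0298, edgeR) and MT-ND1 by -0.37 (SE 0.11, adjusted p = 0.0374, edgeR). The strongest negative differences were of symbols that overlapped between KO and WT in rats 17 to 24: the nicotinic receptor subunit CHRNA2 (-1.66 ± 0.42), the oestrogen receptor ESR1 (-1.51 ± 0.29), the oxysterol binding protein OSBPL8 (-1.49 ± 0.32), the phosphatase regulator PPP1R16B (-1.49 ± 0.32), apolipoprotein APOB (-1.48 ± 0.43) and the kallikrein KLK1 (-1.45 ± 0.38, with reads that are not whole), with adjusted p from 0.00309 to 0.0313 (edgeR). The WT mean of ESR1 was 6.35 CPM in rats 17 to 24 and 18.2 CPM in rats 25 to 32, and its KO mean 6.36 CPM in both. CHRNA2, APOB, OSBPL8 and PPP1R16B also had higher WT means in rats 25 to 32, and the last 2 had lower KO means there. For KLK1 both means were lower there (WT 5.65 and 1.60 CPM, KO 3.78 and 0.389 CPM).

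A few genes had the larger log2 fold change in rats 17 to 24. HAO1 rose by 2.98 there and by 1.67 in rats 25 to 32 (difference -1.31, SE 0.33, adjusted p = 0.016, edgeR), and BLVRA by 1.49 and 0.78 (difference -0.71, SE 0.20, adjusted p = 0.0248, edgeR). The WT mean of HAO1 was 0.873 CPM in rats 17 to 24 and 7.64 CPM in rats 25 to 32, and its KO mean 6.80 and 24.3 CPM. C2CD4D was lower in KO rats 17 to 24 and not called in rats 25 to 32 (-0.75 and -0.047; difference 0.70, SE 0.22, adjusted p = 0.0374, edgeR). CNNM1, a metal transport mediator, was the 1 symbol called in opposite directions. In rats 17 to 24 it was at 2.03, 2.74, 2.78 and 3.32 CPM in KO and 2.09, 1.38, 1.44 and 1.25 CPM in WT (0.83, SE 0.21, adjusted p = 0.0305, edgeR). In rats 25 to 32 it was at 10.1, 7.18, 9.65 and 8.49 CPM in KO and 9.44, 14.2, 11.4 and 13.1 CPM in WT (-0.44, SE 0.15, adjusted p = 0.0363, edgeR). KO 18 and WT 17 overlapped in the first range, and the call there was lost with any of 6 rats left out. The difference itself was -1.27 (SE 0.26, adjusted p = 0.00436, edgeR).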

How the data were processed

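The authors deposited estimated counts of reads per gene symbol for 16 rats in a table of 14931 symbols, in which each value is a count with 1/6 added and no scaling between libraries, as worked out from the values. Here 1/6 was taken off and values were rounded; 97.7% were within 0.01 of a whole number, 556 symbols held other values, and 78 symbols shared all their values with another symbol, in 37 groups with at least 50 reads. RNA of kidney tissue was made into stranded mRNA libraries and sequenced in paired ends. The submitters' processing notes name bcl2fastq 2.20, STAR 2.7.3, DESeq2 1.24.0, R 3.6.1 and the builds rn5 and mm10; the counter and annotation are not given in the sources used here. A table of the mice was not used here.

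Counts were tested in R 4.3.3 with edgeR 4.0.16 (quasi-likelihood, robust, TMM factors, its filter on low counts), KO against WT within each number range, and as an interaction over 16 rats for the difference between ranges, with no covariate and Benjamini-Hochberg adjustment at 0.05. On simulated counts with 200 genes changed 2-fold the fit for rats 17 to 24 recovered 94.5% with 6 false calls among 11639 genes. Smaller changes were not simulated, while the median absolute log2 fold change of the called symbols was 0.58. The recovery therefore does not show how many smaller changes were missed. The filter on low counts can keep a symbol through the reads of 1 group alone, KO or WT. Alternatives were DESeq2 1.42.0, limma-voom (limma 3.58.1), other size factors, other filters, all rats in 1 fit, omission of uncertain or mitochondrial symbols and of each rat. Depth was 25002089 to 32568495 reads per library; it limits counting error of single genes, while the 4 rats per group limit the precision of differences. The smallest chi-square per degree of freedom between libraries of 1 group was 8.60, so no library was counted as a repeat. The labels name each animal, so the spread is between rats.

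The groups, lists and rule for naming genes were chosen with earlier results of these data known. Genes named were CTNS; the 12 largest rises and 12 largest falls among called symbols with a mean of at least 1 CPM and no overlap between KO and WT; members of the lists beside their counts, those of smallest adjusted p first; the 6 largest and 6 smallest differences between ranges at a mean of at least 1 CPM; and symbols called in opposite directions. BLVRA and C2CD4D fall outside this rule and were chosen after their values were seen. Promoters are from RefSeq (GRCr8). Results for some genes are not reported here.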

Additional observations from a re-analysis of the deposited data

Results flagged for a closer look

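In a test of gaps within each group of 4 rats, run on 84 groups of values of which chance flags about 1 in 20, 2 stood apart. GAL was at 0 CPM in KO rat 24, against 1 read in each of the other 3 KO rats. WT rat 17 had 25002089 reads, below the other WT rats, and the 504 to 930 symbols called with 1 rat left out include 930 without that rat.

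The genotype change differed between rats 17 to 24 and rats 25 to 32 for 1745 symbols (interaction term, adjusted p under 0.05, edgeR). Of the genes named in the report, 41 had the higher log2 fold change in rats 25 to 32 and 28 the lower. Values are the log2 fold change in rats 25 to 32 minus that in rats 17 to 24. In the direction of higher, differences were LCN2 by 3.04, FGB by 2.66, FGG by 2.395, ADRA1D by 2.25, AKR1B10 by 2.22, CDKN1A by 2.17, SPP1 by 2.06, TIMP1 by 1.72, PHLDA3 by 1.62 and TREM2 by 1.54. Further positive differences were ATF3 by 1.38, PSMB8 by 1.23, CD44 by 1.20, VIM by 1.16, MMP2 by 1.12, TAP2 by 1.11, GPNMB by 1.11, LTBP2 by 1.09, C4A by 1.05 and CLDN4 by 0.92. CTSZ by 0.88, CTSD by 0.86, MYC by 0.85, MCM3 by 0.84, CLDN1 by 0.82, MCM6 by 0.80, C1QB by 0.75, PDPN by 0.74, CDK1 by 0.73 and COL18A1 by 0.71 followed. Smaller positive differences were C2CD4D by 0.70, UMOD by 0.65, GDF15 by 0.60, CP by 0.59, TGFB1 by 0.50, MDM2 by 0.45, UBE2S by 0.43, KRT7 by 0.42, CCNG1 by 0.38 and CSF1R by 0.35. The list of positive differences ends with  and PCNA by 0.33. In the direction of lower, differences were CHRNA2 by -1.66, ESR1 by -1.51, OSBPL8 by -1.49, PPP1R16B by -1.49, APOB by -1.48, KLK1 by -1.45, PPARA by -1.42, HAO1 by -1.31, MELK by -1.30 and CNNM1 by -1.27. Further negative differences were DMGDH by -0.84, HNF4A by -0.82, DDC by -0.78, BLVRA by -0.71, SLC1A1 by -0.70, PINK1 by -0.67, AQP1 by -0.63, BHMT2 by -0.62, PC by -0.61 and SLC34A1 by -0.60. SLC6A13 by -0.57, FBP1 by -0.56, HADH by -0.52, SLC16A10 by -0.44, SLC34A3 by -0.40, MT-CO1 by -0.40, PDZK1 by -0.38 and MT-ND1 by -0.37 followed.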

How the results depend on the processing

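The 843 calls became 504 to 930 with 1 rat left out, 742 to 876 under other alternatives with edgeR or limma-voom, and 1224 with DESeq2, which shared 839 of them. Symbols called higher numbered 392 to 618 and those called lower 112 to 312 with 1 rat left out, and DESeq2 called 469 lower. The difference between ranges was called for 1010 to 2392 symbols with 1 rat left out, 487 to 1025 of them with the higher and 523 to 1388 with the lower change in rats 25 to 32, and for 2289 with DESeq2. Calls in rats 25 to 32 numbered 3946 to 5242 with 1 rat left out. CTNS stayed uncalled, at -0.16 to -0.060 with 1 rat left out. Over all named genes by the fixed rule and all alternatives, 589 values kept direction and call, 37 lost the call, 1 gained it (AKR1B10 in DESeq2, 0.75) and 15 changed sign.

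All sign changes were of symbols not called in rats 17 to 24. With 1 rat left out APOB ranged from -0.12 to 0.34, CHRNA2 from -0.21 to 0.30, ESR1 from -0.15 to 0.077, OSBPL8 from -0.20 to 0.081 and PPP1R16B from -0.33 to 0.020. CHRNA2 was 0.034 in limma-voom. ESR1 was -0.0052 in DESeq2, -0.018 in limma-voom, -0.0052 with DESeq2 size factors in edgeR, -0.0027 without the filter, -0.0078 with all 16 rats in the fit and -0.0013 without mitochondrially encoded genes. The cause of these shifts was not tested. Other scalings moved the median of all symbols to between -0.0089 and 0.023. No paired analysis was possible because each animal number belongs to 1 rat, so the groups share no replicate number.

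Calls depend on 4 rats a group, symbols that pool several rat genes cannot be split, levels of a few CPM rest on few molecules, and the rat genome of the build named for these files was not used here.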
